A study of Mus musculus with 4 samples.

Results

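The vehicle-treated cells of the N9 line were described by the absolute log2 signal of each gene on 2 arrays, out of 4 arrays in the series. N9 is an immortalised line of mouse microglia, which was made with a retrovirus carrying the v-myc oncogene. The 2 arrays were chosen by their titles, and 1 probe set was taken per gene symbol, the one with the highest mean over them, which gave 22180 genes. The other arrays of the series came from the same line after 10 or 20 µM nimodipine, a blocker of L-type calcium channels, and they were not compared here. The cells were kept in DMEM with serum and antibiotics. The labels name neither the vehicle solution nor its duration, and they do not say whether the arrays came from separate cultures or which array was the control of which dose. The spread between the arrays may therefore be technical.

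Microglia are the resident macrophages of the brain and arise from yolk sac progenitors. Their survival depends on the receptor CSF1R, and the transcription factor PU.1, encoded by Spi1, sets their enhancers. In healthy brain they carry a homeostatic signature, with Tmem119, P2ry12 and Sall1 among its best known genes. In culture and around plaques or damage that signature is known to fade, while genes of lysosomes, lipid handling and phagocytosis become prominent.

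The values carry no detection call, so a bound was taken from genes assumed here to be mostly unused by a microglial cell. The 1394 olfactory and vomeronasal receptor genes had a median log2 level of 3.22, and their 95th and 99th percentiles were 4.93 and 6.02. A gene was called clear where both arrays lay above 6.02, dim where both lay above 4.93 but not both above 6.02, and at or below the bound where neither array exceeded 4.93. Of all 22180 genes, 12740 had both arrays above 4.93 (57.4%) and 9363 were clear (42.2%). These shares are the ones to set beside the counts given for each list below. The dim genes numbered 3377, those at or below the bound 8648, and 792 had 1 array on either side. By the mean of the arrays, 13122 genes lay above 4.93 (59.2%). The lower bound is weak by itself, since 7 of 24 genes of liver, muscle, skin and testis also had both arrays above it. The clear zone was stricter, with 3 of those 24 genes in it.

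The gene levels ran from 2.35 to 14.12 with a median of 5.48, and the upper 1% began at 11.50. Probe sets differ in how brightly they report the same amount of RNA, so a rank or percentile orders signals and not transcript numbers. A dim probe set does not show that a gene is silent. Rplp2, a ribosomal protein gene that growing cells use, read 4.08 and 4.29. Of the 956 genes in the lists below, 68 have more than 1 probe set and are given at the brightest. Their other probe sets can be far dimmer, with lowest means of 5.41 for Irf8, 6.09 for Npm1, 6.68 for Fabp5 and 7.27 for Lpl. Ranks are counted from the brightest gene, and a percentile is the share of the 22180 genes with a lower level. Every pair of values is given in the order vehicle array 1, then vehicle array 2.

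**Figure D1:**
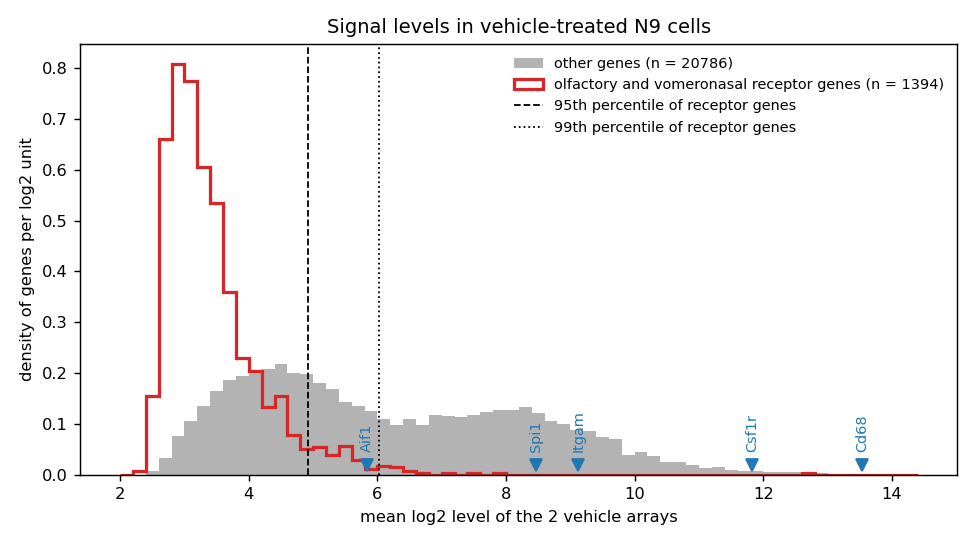
Density of the mean log2 level of the 2 vehicle arrays for 1394 olfactory and vomeronasal receptor genes (red outline) and the 20786 other genes (grey), with the receptor genes' 95th (dashed) and 99th (dotted) percentiles at 4.93 and 6.02. Triangles mark the 5 core myeloid markers, of which Cd68, Csf1r, Itgam and Spi1 lie above both lines and Aif1 lies between them.

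The 2 arrays gave nearly the same levels. Across genes, which are not independent replicates, Pearson's r was 0.995, and the median absolute difference was 0.133 on the log2 scale. The difference stayed within 0.5 for 96.4% of genes. The pooled SD was 0.128 for clear genes and 0.174 for genes at or below the bound, which serves as the error of the levels given here (n = 2). Differences of 1 or more were found for 25 genes (0.113%), of which 15 were higher on array 1 and 10 on array 2. Only 7 of those 25 had a mean above 4.93, and none of the 956 genes in the lists described here was among the 25.

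**Figure D2:**
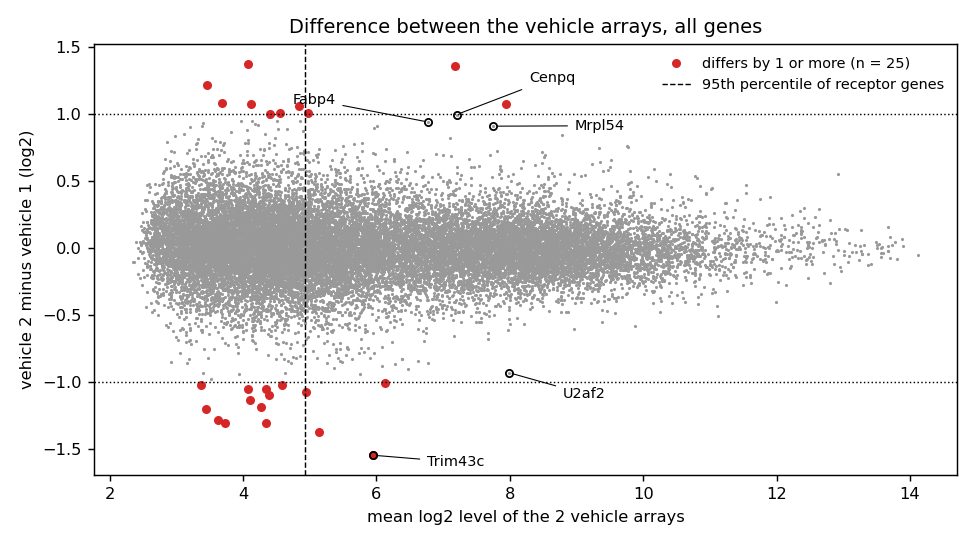
Log2 level on vehicle array 2 minus that on vehicle array 1 (y axis) against the mean log2 level (x axis) for 22180 genes. Red points mark the 25 genes that differ by 1 or more (dotted lines), black rings mark 5 named genes, and the dashed line is the bound of 4.93, above which 7 of the red points lie.

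The core markers of the myeloid lineage were all above the lower bound, and 4 of 5 were clear. Cd68, a glycoprotein of macrophage lysosomes, read 13.51 and 13.55, which ranked it at number 18 of all genes. Csf1r, the receptor for the growth factors CSF1 and IL-34, read 11.85 and 11.80 and stood at the 99.2 percentile. Itgam, the integrin CD11b, read 9.19 and 9.06. These 3 markers lay far above the olfactory and vomeronasal genes' median of 3.22 and their 99th percentile of 6.02. Spi1, encoding PU.1, read 8.51 and 8.43. Aif1, encoding the cytoskeletal protein IBA1, read 5.93 and 5.74 and was the lone dim marker. The largest difference between the arrays among the 5 was 0.18, for Aif1.

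Among 26 measured genes shared by most macrophages, 23 were clear and 3 were at or below the bound, with a median of 9.16. The cathepsin gene Ctss read 12.65 and 12.70. Fcer1g, the signalling chain of Fc receptors, read 12.53 and 12.57. Lyz2, encoding macrophage lysozyme, read 12.29 and 12.52. The leukocyte phosphatase Ptprc (CD45) read 10.72 and 10.71, and the actin bundler Lcp1 read 11.68 and 11.70. Tyrobp, the adaptor DAP12, read 9.99 and 10.05. At or below the bound lay Adgre1, which encodes the F4/80 antigen, at 4.56 and 4.29, Ms4a6d at 4.70 and 4.44, and Lyz1 at 4.80 and 4.79. The signature of macrophages at large was thus present with a few gaps, F4/80 among them.

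Of 28 measured myeloid transcription factors, 18 were clear and 4 were at or below the bound, around a median of 7.21. Bhlhe40 and Bhlhe41, related repressors known from tissue macrophages, led with 11.69 and 11.62 for the first and 10.45 and 10.43 for the second. Mef2a, a MADS-box factor of microglial enhancers, read 10.47 and 10.31. Mitf, the regulator of lysosome genes in osteoclasts and melanocytes, read 10.20 and 10.06. Runx1 read 9.55 and 9.44, and Irf8, an interferon regulatory factor that microglia need, read 8.32 and 8.23. Sall1, the factor that marks microglia among macrophages, was the lowest in the list at 3.74 and 3.65. Maf read 4.32 and 4.37 and the blood lineage factor Gata2 read 3.76 and 4.08, also at or below the bound.

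The homeostatic microglia genes were divided. Of 34 measured, 15 were clear, a share near the 42.2% of all genes, 6 were dim and 13 were at or below the bound. Their median of 5.53 lay close to the 5.48 of all genes. The genes that define the signature were in the lowest zone. Tmem119, a microglial membrane protein, read 4.65 and 4.79. P2ry12, the ADP receptor that steers microglial processes, read 4.44 and 4.82. Siglech, a sialic acid binding lectin, read 4.82 and 4.72, and the orphan receptor gene Gpr34 read 3.99 and 4.37. Fcrls and P2ry13, also used to define the signature, read 4.11 and 4.41, and 4.27 and 4.05. The label microglia therefore rests in these arrays on macrophage markers and not on this signature's defining genes. Cx3cr1, the fractalkine receptor, was clear at 6.69 and 6.44. The complement genes C1qa and C1qb were dim, at 5.31 and 5.45, and 5.55 and 5.49, and C1qc read 4.57 and 4.24. The brightest members were genes that other macrophages also use, such as the chemokine gene Ccl3 at 11.70 and 12.09, the protease inhibitor gene Cst3 at 10.74 and 10.98, and Trem2 at 9.86 and 10.11.

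Genes named for disease-associated microglia, a state described around amyloid plaques, were bright. Of 29 measured, 25 were clear and 2 were at or below the bound, with a median of 9.92. The list holds housekeeping genes such as Fth1 (ferritin heavy chain, 13.75 and 13.80) and B2m (13.68 and 13.66), so its median is not a measure of that state alone. Gpnmb, a glycoprotein of lysosome-rich macrophages, read 13.31 and 13.27. Lilrb4a, an inhibitory receptor, read 12.49 and 12.78. Lpl, lipoprotein lipase, read 10.93 and 11.19, and Fabp5, a fatty acid carrier, 10.38 and 10.43. Lower in the same list were Apoe at 8.13 and 8.08, the beta-glucan receptor gene Clec7a at 7.79 and 8.16, and the integrin gene Itgax at 6.10 and 6.31. Igf1 was dim at 5.40 and 5.00, and Ch25h (4.73 and 4.81) and the chemokine gene Ccl6 (3.69 and 3.99) were at or below the bound.

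Markers of border-associated macrophages, the macrophages of the meninges and vessels, had a median of 5.25, with 4 of 15 clear and 6 at or below the bound. Dab2, an endocytic adaptor, read 9.02 and 9.16 and Cbr2, a carbonyl reductase, read 8.76 and 8.82. Defining genes of that type were low. Mrc1 (CD206) was dim at 5.36 and 5.43, Lyve1 was dim at 5.01 and 5.14, and Cd163 read 4.16 and 3.87.

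**Figure D3:**
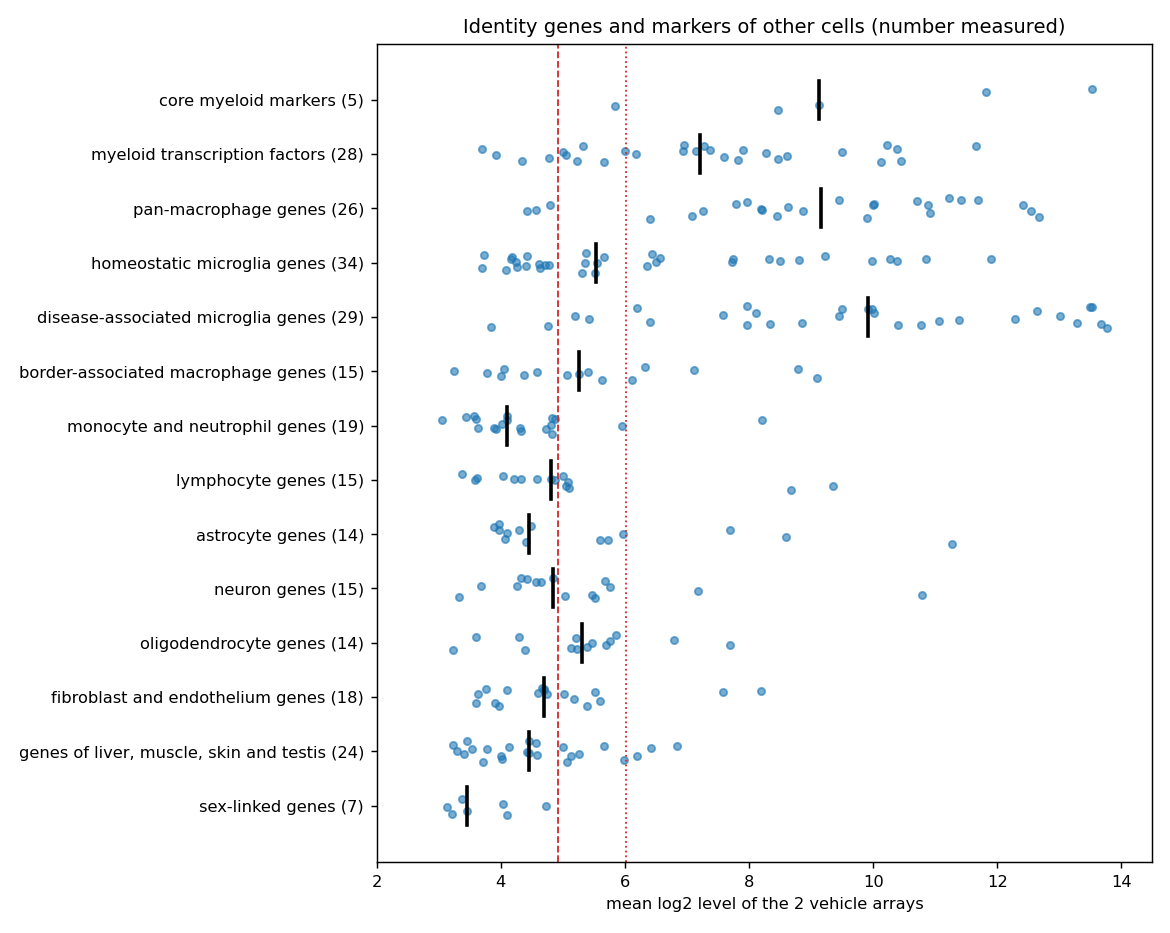
Mean log2 level of the 2 vehicle arrays (x axis) for each measured gene (points) of 14 lists (rows, number of genes in brackets), with the median of each list as a black bar and the bounds of 4.93 (dashed) and 6.02 (dotted). Medians of the pan-macrophage and disease-associated lists, 9.16 and 9.92, lie far to the right of those of other cell types, which run from 4.10 to 5.31.

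Genes of other cell types were mostly dim or at or below the bound. The clear ones are named below, except the 3 among 24 genes of liver, muscle, skin and testis. Of 19 monocyte and neutrophil genes, 16 were at or below the bound, and the neutrophil alarmin genes S100a8 (3.34 and 3.54) and S100a9 (4.12 and 4.50) were among them. Prtn3, proteinase 3 of myeloid granules, was clear at 8.32 and 8.10, and Elane, its neighbour in function, read 6.08 and 5.83. Of 15 lymphocyte genes, 2 were clear, namely Il7r, the interleukin 7 receptor, at 9.02 and 9.67, and the costimulator Cd28 at 8.70 and 8.65. The T cell receptor chain gene Cd3e read 3.69 and 3.56 and the B cell gene Ms4a1 read 3.45 and 3.72, so the defining genes of both lineages were low. The medians of these 2 lists were 4.10 and 4.82.

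In the brain lists few genes were clear. Of 14 astrocyte genes, 3 were clear, and these were the metabolic genes Aldoc (11.34 and 11.19) and Glul (8.60 and 8.59) and Ndrg2 (7.67 and 7.73). Glul has a second probe set at a mean of 3.88, so its level depends on which probe set is read. Aqp4, the water channel of astrocyte endfeet, read 4.48 and 4.51, and the gap junction gene Gja1 read 3.86 and 3.92. Of 15 neuron genes, 2 were clear, the glycolytic gene Eno2 (10.85 and 10.71) and the kinase gene Camk2a (7.17 and 7.19), whereas the synaptic gene Snap25 read 4.38 and 4.48. Of 14 oligodendrocyte genes, 10 had both arrays above 4.93, a larger share than the 57.4% of all genes. Of these 10, 8 were dim, and the other 4 genes were at or below the bound. The 2 clear genes were Mbp (7.69 and 7.70) and Pdgfra (6.77 and 6.82). Mog, a myelin surface protein, was dim at 5.48 and 5.46, and Mag read 4.34 and 4.46. Of 18 genes of fibroblasts and endothelium, Vwf (8.05 and 8.35) and Acta2 (7.52 and 7.63) were clear, and the matrix gene Dcn read 3.61 and 3.58. The medians of these 4 lists were 4.45, 4.84, 5.31 and 4.69, and that of the 24 genes of unrelated tissues was 4.46.

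All 7 sex-linked genes were at or below the bound. Xist, the RNA of the inactive X chromosome, read 4.08 and 4.12, and the Y-linked genes Kdm5d, Uty and Eif2s3y read 3.51 and 3.40, 3.27 and 3.47, and 4.03 and 4.04. Of 15 protein-coding genes placed on the Y chromosome, the predicted gene Gm20822 alone had both arrays above the lower bound, at 6.35 and 6.27.

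The 20 brightest genes were named after passing over small RNAs, mitochondrially encoded genes and predicted genes, which took 9 of the places. Genes of glycolysis, translation and lysosomes were among the 20, beside others of no shared function. The leading gene was Gapdh (13.88 and 13.90), the glycolytic dehydrogenase. Eif4a1, a helicase of translation initiation, read 13.85 and 13.91. The intermediate filament gene Vim read 13.59 and 13.75. Ribosomal and elongation genes followed, with Rpl28 at 13.66 and 13.67, Rpl29 at 13.59 and 13.55, Eef1a1 at 13.60 and 13.53 and Rps6 at 13.50 and 13.53. The lysosomal protease Ctsb read 13.47 and 13.51 and Ctsk, a collagen-degrading cathepsin best known from osteoclasts, read 13.20 and 13.33. Rpl21 (13.51 and 13.51), Eef2 (13.47 and 13.35), the RNA-binding protein gene Pcbp2 (13.39 and 13.35), Pgk1 (13.30 and 13.33) and Txnip, a glucose-regulated arrestin (13.30 and 13.26), completed the leading 20 with Fth1, B2m, Cd68, Gpnmb and 2 others. Those 2 were Kcnma1, a potassium channel (13.68 and 13.66), and Odf1, a sperm tail protein (13.44 and 13.31). Each has a further probe set at a mean of 3.41 and 4.06, so for these genes the level depends on which probe set is read. The same holds for 217 of 1082 genes with several probe sets, where 1 probe set was above 6.02 and another at or below 4.93. Others of the 20 have a dimmer probe set above 6.02, with lowest means of 6.38 for Rpl21, 7.17 for Rpl29 and 7.75 for Eef1a1. Eif4a1 has one at 9.03, and these levels too depend on the probe set read.

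Promoter letters were set beside the levels for 16990 genes with a RefSeq window (GRCm38.p6) of 250 bases before to 50 after the start. Motifs were searched on both strands as exact letters, and a match is a description of the letters and not of binding. The sequences that follow show a window from the brightest macrophage marker, from cathepsin genes with the motifs that PU.1 and the MiT/TFE lysosomal factors are known to prefer, from a bright ribosomal gene and from a gene near background. They run 5′ to 3′ from 250 bases before the start to 20 after it, and capitals mark the motif.
Cd68, chr11:69666151-69666420, minus strand, CCAAT box: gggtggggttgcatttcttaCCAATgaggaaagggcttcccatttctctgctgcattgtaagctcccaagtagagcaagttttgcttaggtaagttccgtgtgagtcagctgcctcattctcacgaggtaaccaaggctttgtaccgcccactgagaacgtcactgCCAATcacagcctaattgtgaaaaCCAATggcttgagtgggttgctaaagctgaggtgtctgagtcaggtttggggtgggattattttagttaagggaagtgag
Ctss, chr3:95526536-95526805, plus strand, PU.1 type motif read on the other strand: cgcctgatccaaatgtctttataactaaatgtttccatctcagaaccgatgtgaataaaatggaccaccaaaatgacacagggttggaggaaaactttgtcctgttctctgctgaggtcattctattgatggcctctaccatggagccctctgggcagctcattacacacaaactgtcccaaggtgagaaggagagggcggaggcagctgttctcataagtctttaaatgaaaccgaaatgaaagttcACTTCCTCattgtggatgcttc
Ctsd, chr7:142387808-142388077, minus strand, MiT/TFE core: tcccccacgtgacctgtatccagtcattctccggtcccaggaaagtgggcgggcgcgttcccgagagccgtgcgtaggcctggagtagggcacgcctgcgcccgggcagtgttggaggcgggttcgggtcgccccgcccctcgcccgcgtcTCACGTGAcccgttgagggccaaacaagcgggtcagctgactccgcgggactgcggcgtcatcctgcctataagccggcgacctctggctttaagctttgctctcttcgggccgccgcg
Rps6, chr4:86857348-86857617, minus strand, ETS motif of the GABPA type: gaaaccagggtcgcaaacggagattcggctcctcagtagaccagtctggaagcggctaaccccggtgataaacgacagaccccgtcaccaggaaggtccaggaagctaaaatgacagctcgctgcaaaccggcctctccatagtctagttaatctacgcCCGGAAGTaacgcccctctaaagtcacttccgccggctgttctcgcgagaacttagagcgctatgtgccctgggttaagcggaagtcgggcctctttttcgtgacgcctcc
Il2, chr3:37125935-37126204, minus strand, TATA box: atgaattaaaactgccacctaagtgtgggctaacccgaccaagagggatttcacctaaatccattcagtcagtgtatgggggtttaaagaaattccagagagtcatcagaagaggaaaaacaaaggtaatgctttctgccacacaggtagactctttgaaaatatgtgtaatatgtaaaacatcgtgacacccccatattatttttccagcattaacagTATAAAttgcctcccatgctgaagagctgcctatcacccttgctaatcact

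The 16990 genes were divided by level into 10 bins of 1699. GC content was higher in the brighter bins, with a median of 40% in the lowest bin and 62.3% in the highest. CCGGAAGT, the ETS motif capitalised in Rps6, was found in 0.530% of windows in the lowest bin, 8.71% in the highest and 11.2% in the one next to the highest, against 5.22% of all windows. TATAAA, capitalised in Il2, went the other way, from 33.7% to 7.30%, with 12.9% of all windows. CACGTG was in 3.47% and 11.6%, and TCACGTGA, which contains CACGTG, was in 0.353% and 3.0%. GAGGAAGT, whose reverse complement is capitalised in Ctss, was in 3.0% and 3.88%, and CCAAT in 44.3% and 40.4%. GC content moves with these shares, so windows with 55 to 65% GC were also counted. There CCGGAAGT was in 3.30% of 1244 windows of genes with a mean at or below 4.93 and in 11.1% of 3234 with a mean above 6.02, and TATAAA in 7.07% and 5.10%. In the same band CACGTG was in 8.68% and 11.6%, TCACGTGA in 0.643% and 2.47%, GAGGAAGT in 2.57% and 3.31%, and CCAAT in 35.7% and 42.2%. Of 22 lysosome genes with a window, 6 held CACGTG (27.3%, against 8.18% of all windows), and Ctsd and Atp6v1a also held TCACGTGA (9.09%, against 1.28% of all windows). Neither share was particular to lysosome genes, since CACGTG was in 4 of 12 windows of microglial ion channels (33.3%) and 4 of 15 of the Myc network (26.7%), and TCACGTGA in 3 of 19 of calcium entry, release and pumps (15.8%). Of 18 ribosomal genes with a window, 4 held CCGGAAGT (22.2%).

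Receptors of innate sensing were well represented. Of 25 Toll-like receptors and adaptors, 19 were clear and 4 at or below the bound, with a median of 7.67. Among accessory proteins, Unc93b1, the chaperone of endosomal Toll-like receptors, read 11.37 and 11.26, and Cd14, the lipopolysaccharide coreceptor, read 11.06 and 11.40. Ly96, encoding MD-2, read 9.82 and 9.34. The lipopolysaccharide receptor Tlr4 read 8.74 and 8.65, and the adaptor Myd88 read 8.68 and 8.86, so Cd14, Ly96, Tlr4 and Myd88 were all clear. Tlr5, the flagellin receptor, read 8.86 and 8.93. Of the nucleic acid sensors, Tlr7 read 7.99 and 8.14, Tlr9 7.5 and 7.5, and Tlr13 6.91 and 7.20. Tlr2, the lipopeptide receptor, read 7.54 and 7.21. Tlr3, a sensor of double-stranded RNA, was dim at 5.21 and 5.22. Tlr8 (3.03 and 3.60), Tlr11 (3.75 and 4.05), Tlr12 (4.52 and 4.39) and Tlr1 (4.29 and 4.63) were at or below the bound.

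Of 18 cytosolic sensors and inflammasome genes, 13 were clear and 3 at or below the bound, with a median of 6.89. The DNA sensor Aim2 read 10.17 and 10.05 and Mavs, the hub of RNA sensing, read 10.15 and 9.99. Sting1 read 9.35 and 9.15 and the protease Casp1 read 9.14 and 9.08. Nlrp3, the best studied inflammasome receptor, was lower at 6.48 and 6.04, and the RNA sensor Ifih1 read 4.02 and 4.14. Naip2 had the largest difference between the arrays in this list, 5.81 and 4.92, and so lay on either side of the bound.

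**Figure D4:**
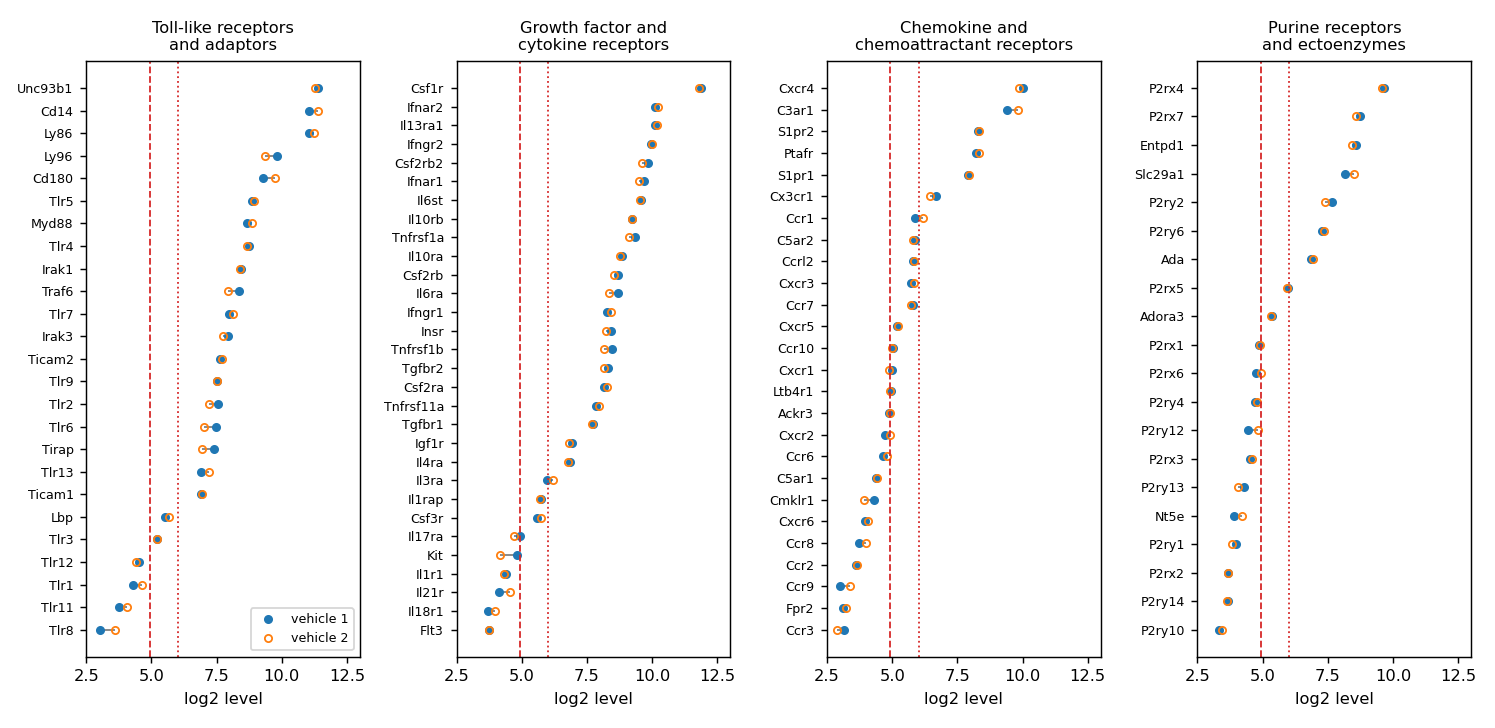
Log2 level (x axis) on vehicle array 1 (filled) and vehicle array 2 (open) for each measured gene of 4 receptor lists, with the bounds of 4.93 (dashed) and 6.02 (dotted). The Toll-like and cytokine receptor lists have 19 of 25 and 21 of 30 genes with both arrays above 6.02, and the chemokine and purine receptor lists 6 of 26 and 7 of 20.

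Growth factor and cytokine receptors had 21 of 30 members clear and 5 at or below the bound, with a median of 8.27. Csf1r was the brightest of them. The interferon receptor chains Ifnar2 (10.12 and 10.22), Ifnar1 (9.68 and 9.49) and Ifngr2 (9.93 and 9.98) were clear, as were the shared chain Il6st (9.57 and 9.53) and the interleukin 10 receptor Il10ra (8.84 and 8.76). Tgfbr1 and Tgfbr2, through which TGF-beta maintains microglia, read 7.73 and 7.71, and 8.29 and 8.16. Tnfrsf11a, encoding RANK, the osteoclast differentiation receptor, read 7.85 and 7.96. At the low end were Flt3 (3.75 and 3.74), Il18r1 (3.72 and 3.96) and the interleukin 1 receptor Il1r1 (4.38 and 4.33).

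Chemokine and chemoattractant receptors were sparser, with 6 of 26 clear, 11 at or below the bound and a median of 4.97. Cxcr4, the CXCL12 receptor, read 10.02 and 9.86, and C3ar1, the receptor for complement C3a, read 9.39 and 9.82. The sphingosine 1-phosphate receptors S1pr2 and S1pr1 read 8.30 and 8.33, and 7.91 and 7.94. Ccr2, which recruits monocytes, read 3.59 and 3.66, C5ar1, the C5a receptor, read 4.39 and 4.42, and Fpr2, a formyl peptide receptor, read 3.10 and 3.23.

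Fc and phagocytic receptors had 23 of 35 members clear and 6 at or below the bound, with a median of 7.26. After Fcer1g, the integrin chain Itgb2 read 10.93 and 10.83 and the scavenger receptors Lrp1 and Scarb1 read 10.69 and 10.67, and 10.72 and 10.62. Clec4e (Mincle), a sensor of mycobacterial glycolipid, read 10.39 and 10.77. The Fc receptors Fcgr4 (9.83 and 9.79), Fcgr2b (8.74 and 8.84), Fcgr3 (7.41 and 7.12) and Fcgr1 (6.39 and 6.09) were all clear. The 6.09 of Fcgr1 lies above 6.02 by less than the pooled SD of 0.128 for clear genes, so its zone is not settled. The apoptotic cell receptors Mertk and Axl read 8.01 and 7.58, and 6.31 and 6.51. The scavenger receptors Cd36 (3.26 and 3.24) and Timd4 (3.78 and 3.77) were the lowest. Downstream, 19 of 21 adaptors and kinases of immune receptors were clear and 1 was at or below the bound, with a median of 8.59. Syk, the kinase that reads DAP12 and Fc receptor chains, read 8.43 and 8.64, its effector Plcg2 read 9.73 and 9.73, and the Src family kinase gene Fgr read 4.53 and 3.97.

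Of 20 inhibitory myeloid receptors and their phosphatases, 11 were clear and 4 at or below the bound, with a median of 6.72. Cd33, a sialic acid binding lectin, read 11.42 and 11.27. The phosphatase Ptpn6 (SHP-1) read 10.57 and 10.52 and Sirpa, the receptor for CD47, 9.99 and 10.02. Cd274, encoding PD-L1, read 8.32 and 8.34. Cd200r1, by which neurons restrain microglia, read 3.56 and 3.37.

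Purine signalling genes had 7 of 20 members clear and 10 at or below the bound, with a median of 4.86. The ATP-gated channels P2rx4 (9.66 and 9.58) and P2rx7 (8.74 and 8.59) and the ectonucleotidase Entpd1, or CD39 (8.60 and 8.42), led the list. P2ry6, the UDP receptor tied to phagocytosis, read 7.28 and 7.37. Nt5e (CD73), which makes adenosine, read 3.92 and 4.23. Among neurotransmitter receptors 2 of 24 were clear and 16 at or below the bound, with a median of 4.53. These 2 were Cnr2, the cannabinoid receptor of immune cells (6.86 and 6.83), and the nicotinic receptor gene Chrna7 (6.28 and 6.34). Of 27 nuclear receptors, 16 were clear and 5 at or below the bound, with a median of 6.94. The glucocorticoid receptor Nr3c1 led with 10.09 and 9.94, and the liver X receptor Nr1h3 read 7.06 and 6.83. Pparg, the lipid-sensing receptor, read 4.41 and 4.33.

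Subunits of the L-type calcium channel, the target of dihydropyridines, were near the bound. Of 11 measured, 1 was clear, 3 were dim and 6 were at or below the bound, with a median of 4.79. Among the pore-forming subunits, Cacna1d read 5.80 and 5.47, Cacna1f 5.26 and 5.30, and Cacna1s 5.18 and 5.14. Cacna1c, the cardiac and neuronal pore, read 4.67 and 4.44. Thus 3 pore genes were dim and 1 was at or below the bound, and none was clear. The clear subunit was Cacnb1, an auxiliary beta subunit, at 7.64 and 7.51. Of 6 other voltage-gated pores, with a median of 4.9, Cacna1a of P/Q-type channels was clear at 7.15 and 7.06 and 3 were at or below the bound. Calcium entry by stores was better represented, and 15 of 23 genes of entry, release and pumps were clear, 4 were at or below the bound and the median was 7.89. The reticulum pump Atp2a2 read 11.50 and 11.28. The store sensor Stim1 read 8.48 and 8.41, and its channel partners Orai1, Orai2 and Orai3 read 7.10 and 7.24, 6.93 and 7.0, and 8.31 and 8.39. Of 15 other channels known from microglia, 9 were clear and 3 at or below the bound, with a median of 6.96. Clic1 read 10.30 and 10.37 and the calcium-activated channel Kcnn4 read 7.88 and 7.79. The resting potassium channel Kcnj2 was dim at 5.25 and 5.20, and the proton channel Hvcn1 read 6.92 and 7.0.

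Energy metabolism was among the brightest parts of the transcriptome. All 22 measured glycolysis genes had both arrays above the lower bound and 20 were clear, with a median of 9.66. After Gapdh and Pgk1, pyruvate kinase Pkm read 13.24 and 13.26 and Tpi1 read 12.61 and 12.65. Slc2a1, the glucose transporter GLUT1, read 12.51 and 12.45, and the platelet type phosphofructokinase Pfkp read 12.28 and 12. A second probe set of Slc2a1 had a mean of 6.20, so its level depends on which probe set is read. Of the hexokinases, Hk2 read 9.62 and 9.43, Hk1 8.09 and 7.91, and Hk3 7.87 and 8.52. Lactate dehydrogenase Ldha read 9.04 and 8.88, and the B subunit Ldhb was dim at 5.71 and 5.71. The 6 pentose phosphate genes were all clear, with a median of 8.42, led by Pgd at 10.02 and 9.93.

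Mitochondrial genes were bright as well. Of 25 genes of the tricarboxylic acid cycle and its entry, 24 were clear, with a median of 10.05. The isocitrate dehydrogenase subunit Idh3g read 12.07 and 12.15 and malate dehydrogenase Mdh2 read 11.80 and 11.98. The exception was Acod1, which makes itaconate in activated macrophages, at 4.50 and 4.50. Of 30 nuclear genes of oxidative phosphorylation, 28 were clear and none was at or below the bound, with a median of 9.54. Cox6a1 read 13.21 and 13.18, and the ATP synthase subunit Atp5b read 12.45 and 12.46. The 10 mitochondrially encoded protein genes that were measured, not the full set, had a median of 13.42. Among them ND6, on the other strand from the rest, was the lowest at 11.13 and 11.29. The brightest, ND4, read 13.85 and 13.77.

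Lipid genes were mostly clear. Of 17 fatty acid oxidation genes, 15 were clear, with a median of 8.56. Hadha of the trifunctional protein read 10.20 and 10.27, whereas its partner Hadhb read 5.07 and 4.87, on either side of the bound. The carnitine transferase Cpt1a read 8.46 and 8.12. Of 15 fatty acid synthesis genes, 13 were clear and 2 at or below the bound, with a median of 9.34, and synthase Fasn read 9.66 and 9.91, desaturase Scd1 10.28 and 10.27, and Acly 10.22 and 10.09. All 18 cholesterol genes were clear, with a median of 9.41. Lysosomal acid lipase Lipa read 12.40 and 12.33, the sterol sensor factor Srebf2 10.27 and 10.26, and squalene epoxidase Sqle 10.06 and 10.14. The efflux pumps Abca1 and Abcg1 read 8.16 and 8.19, and 9.20 and 9.23.

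Among 12 serine and folate genes, 10 were clear and 1 at or below the bound, with a median of 7.88, and the mitochondrial enzyme Shmt2 read 10.80 and 10.74. Among 22 glutathione and antioxidant genes, 18 were clear and 2 at or below the bound, with a median of 8.99. Catalase, Cat, read 11.74 and 11.49 and superoxide dismutase Sod1 read 11.49 and 11.61. Haem oxygenase Hmox1 read 11.32 and 11.28, and its regulator Nfe2l2 (NRF2) read 9.72 and 9.83. Nqo1, another known NRF2 target, read 4.50 and 4.43. Among 13 iron genes, 9 were clear and 2 at or below the bound, with a median of 8.45. Besides Fth1, the phagosomal iron pump Slc11a1 read 10.30 and 10.09, and the exporter ferroportin, Slc40a1, read 8.64 and 8.25. Hamp, encoding the liver hormone hepcidin, read 3.36 and 2.90.

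**Figure D5:**
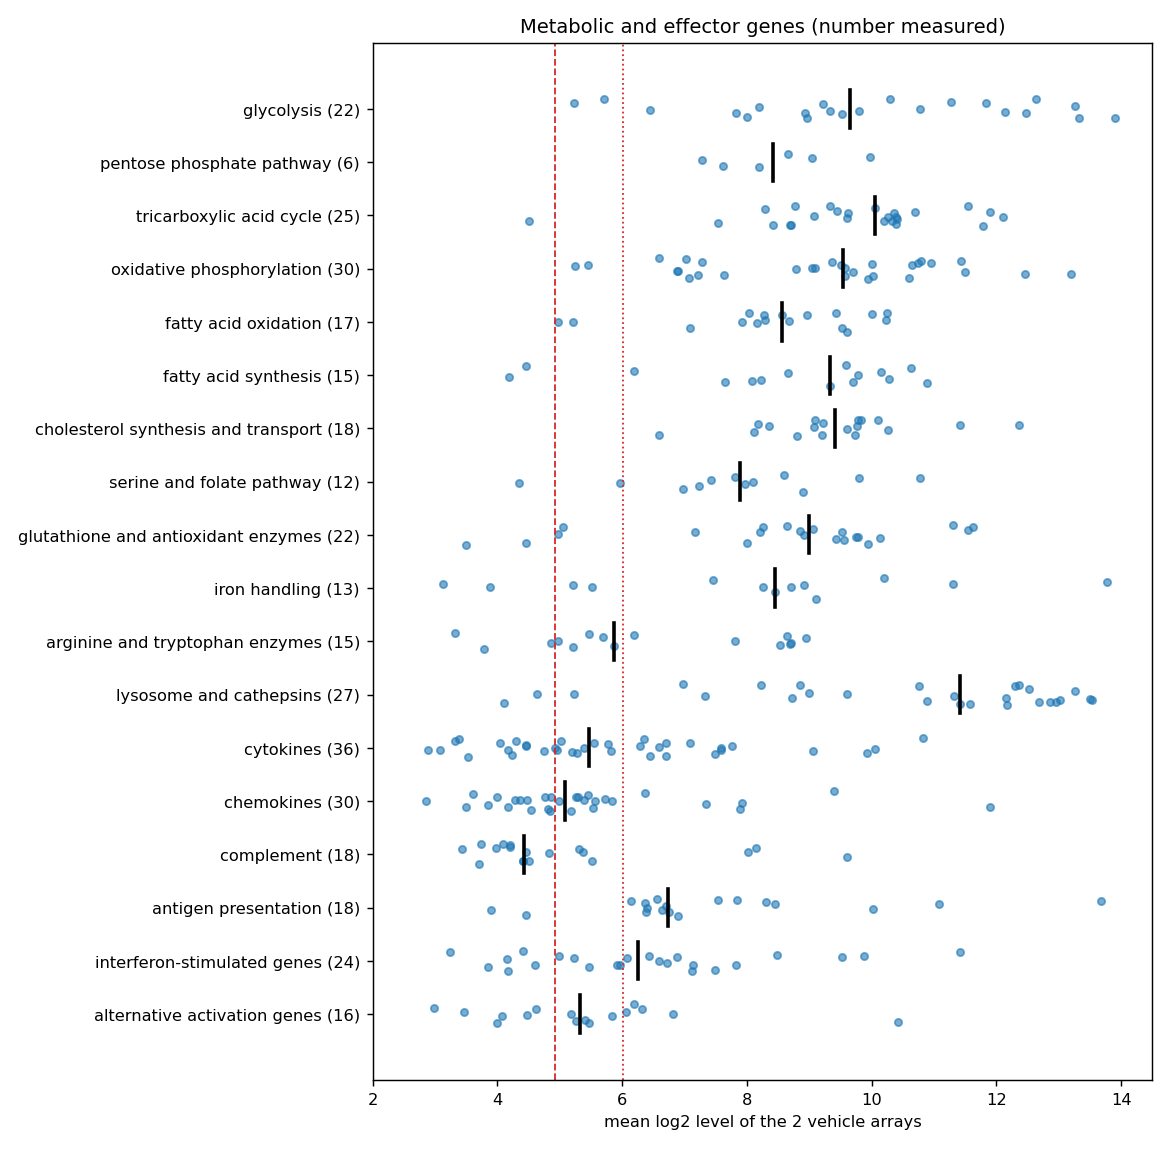
Mean log2 level of the 2 vehicle arrays (x axis) for each measured gene (points) of 18 metabolic and effector lists (rows, number of genes in brackets; the NADPH oxidase list is not plotted), with list medians as black bars and the bounds of 4.93 (dashed) and 6.02 (dotted). The lysosome median of 11.42 is the highest, and complement has the lowest at 4.43.

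Lysosomal genes had the highest median of all 52 lists, 11.42. Of 27 measured, 24 were clear and 2 at or below the bound, and 13 lay in the upper 1% of all genes. Ctsd read 13.02 and 13.00, Ctsa 12.83 and 12.90, and the lysosomal growth factor precursor Grn 13.02 and 12.89. Psap, which yields the saposins, read 12.56 and 12.47. Atp6v0d2, a proton pump subunit known from osteoclasts and some macrophages, read 12.16 and 12.18, and the membrane protein Lamp1 read 12.16 and 12.13. Tfeb, a master regulator of lysosome genes, was dim at 5.16 and 5.31. The granule protease genes Ctsw (4.59 and 4.69) and Ctsg (4.15 and 4.06), known from lymphocytes and neutrophils, were at or below the bound.

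Secreted mediators ran from bright to among the lowest levels of all lists. Of 36 cytokines, 15 were clear, a share near the 42.2% of all genes, and 12 were at or below the bound. Their median of 5.46 was close to the 5.48 of all genes. Tgfb1 read 10.73 and 10.93 and Vegfa read 10.13 and 9.99. The growth factor Csf1 read 9.81 and 10.03, so the line had clear signal for both the CSF1 receptor and this ligand. The inflammatory cytokines Tnf and Il1b were clear but modest, at 6.88 and 7.28, and 6.54 and 6.86. Il6 was the lowest of the list at 2.87 and 2.91, and Il10 (3.31 and 3.45), Ifnb1 (3.38 and 3.28) and Il2 (3.05 and 3.11) were also at or below the bound. Of 30 chemokines, 6 were clear and 12 at or below the bound, with a median of 5.09. Ccl3 stood alone at the upper end, followed by Ccl9 at 9.11 and 9.69. Ccl5 read 7.82 and 7.94, Ccl2 was dim at 5.48 and 5.6, and Cxcl3 read 2.64 and 3.06.

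Complement genes had a median of 4.43, with 3 of 18 clear and 12 at or below the bound. The clear genes were C3ar1, the membrane inhibitor Cd59a (7.96 and 8.34) and properdin, Cfp (8.10 and 7.92). Of 12 genes of the NADPH oxidases, 7 had both arrays above 4.93, a share near the 57.4% of all genes. All 7 were clear and the other 5 were at or below the bound, with a median of 8.02. Rac2 read 12.47 and 12.49, Cyba 10.88 and 10.95, Ncf1 9.68 and 9.78, and the catalytic subunit Cybb 8.65 and 9.10. The oxidases of other tissues Nox1 and Nox4 read 4.2 and 3.99, and 4.25 and 4.22. Of 15 arginine and tryptophan genes, 6 were clear, a share near the 42.2% of all genes. At or below the bound were 2, and the median was 5.87. Inducible nitric oxide synthase Nos2 read 8.68 and 8.72, and the neuronal enzyme Nos1 read 8.88 and 9.03. Arg1, which competes for arginine, was dim at 5.32 and 5.63.

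Of 18 antigen presentation genes, 16 were clear and 2 at or below the bound, with a median of 6.73. Class I genes led, with B2m followed by H2-K1 at 11.03 and 11.11. The class II genes H2-Ab1 (7.61 and 8.07) and H2-Aa (6.73 and 7.07) and their activator Ciita (6.33 and 6.41) were clear at lower levels. Of 24 interferon-stimulated genes, 12 were clear and 6 at or below the bound, with a median of 6.26. Ifitm3, a block to viral entry, read 11.23 and 11.59 and the tetherin gene Bst2 read 9.67 and 9.36. Isg15 (4.23 and 4.12), Ifit1 (4.29 and 4.53) and Mx1 (3.08 and 3.40), classical reporters of type I interferon, were at or below the bound. Of 16 genes of alternative activation, 4 were clear and 6 at or below the bound, with a median of 5.33. Retnla (2.99 and 2.97) and Chil3 (3.56 and 3.37), its usual markers, were among the latter. The brightest, Cd209a at 10.19 and 10.65, has a second probe set at 4.78.

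The cells had the signal of a dividing line. Of 32 cell cycle genes, 28 were clear and 1 at or below the bound, with a median of 9.42. The proliferation marker Mki67 read 11.51 and 11.57, and Top2a, topoisomerase of mitotic chromosomes, read 10.73 and 10.72. Cdkn1a, encoding the inhibitor p21, was also bright at 11.07 and 10.95. Of the D cyclins, Ccnd3 read 9.01 and 8.80, Ccnd1 5.86 and 6.03, and Ccnd2 3.73 and 4.37. Of 17 genes of the Myc network and the Raf kinases, 13 were clear and 2 at or below the bound, with a median of 8.69. The cellular gene Myc was dim at 5.49 and 5.68, while Npm1 and Ncl, known Myc targets of the nucleolus, read 11.95 and 12.17, and 10.76 and 10.74. A viral Myc transcript was not analysed here.

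Genes commonly used as references were all clear, 13 of 13, with a median of 11.07 and a range from Gapdh down to Tbp at 8.0 and 7.72. Actb read 10.86 and 10.80. Of 24 ribosomal protein genes and their paralogs, 20 were clear and 2 at or below the bound, with a median of 10.94. Rpl10l, a paralog known from testis, was the other low member beside Rplp2, at 3.75 and 3.60. Of 30 cytoskeleton genes, 22 were clear and 2 at or below the bound, with a median of 7.81. Pfn1, an actin-binding profilin, read 11.96 and 12.01, and the muscle actin gene Actc1 read 4.00 and 4.43. Members of such families share sequence, and the probe sets can report close copies together.

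Over the lists together, 683 of 956 measured genes had both arrays above 4.93 and 550 were clear. The share above 4.93 exceeded the 57.4% of all genes in 37 of 52 lists. The lists were chosen by topic, with markers of other cell types among them, and are not a sample of the genome. The oligodendrocyte list was among the 37. Just below the bound, by mean, lay P2rx1, Atp2a1, Ackr3, Csf2 and Ltb4r1, from 4.87 to 4.93, and just above it Cxcr1, Il17a, Hadhb, Gpx3 and Ido2, from 4.93 to 4.98. These 10 means span less than the pooled SD of 0.160 over all genes, so their side of the bound is not settled.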

How the data were processed

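Per the labels' protocols, total RNA was isolated with TRIzol and 100 ng was labelled with the WT PLUS kit for Affymetrix arrays. Per the submitters' processing notes, the authors used Affymetrix Expression Console 1.2.1.20 and RMA, and the deposited values are log2 levels per probe set, normalised over the arrays of the series. RMA sets arrays to a common distribution, so the agreement of their distributions is built in.

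Of 41345 probe sets, 23521 had 1 gene symbol in the array annotation. The members and gene lists (52 lists, 1045 symbols, 956 matched, of which 2 by an older name) were chosen with earlier results of these data known. Unmatched genes were not analysed here. One group of 2 arrays allows no comparison of conditions, so levels are described and not tested. The number of arrays limits the precision. Text names the given markers, the 20 highest genes, members of the lists (by level for the longer ones), the 6 genes each way with the largest array difference above the bound, and 5 list genes on each side of it. Some list genes were named for their known role after their values were seen. Promoter motifs and their GC band were chosen after the levels were seen. Sequences are RefSeq's for GRCm38.p6. Alternatives were other bounds, averaged probe sets per gene, all probe sets, equal medians, another difference threshold and leaving out either array. Scripts used Python 3.11.15, pandas 2.3.3, numpy 2.4.6 and matplotlib 3.10.9, and were tested on simulated data.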

Additional observations from a re-analysis of the deposited data

Results flagged for a closer look

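Probe sets outside the gene table also carried signal, and they were singled out because no comparison used them. Of 16010 probe sets that the annotation does not list, 6020 had both vehicle arrays above 4.93 (37.6%), with a median of 4.52 over all of them and 14.24 as the highest mean. Of 1814 probe sets with several symbols, 987 had both arrays above 4.93 (54.4%), with a median of 5.34 and 14.33 as the highest mean. These probe sets carry no single gene name here.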

How the results depend on the processing

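The count of genes with a mean above the bound, 13122, ranged from 8789 to 13122 over all alternatives and stayed within 1.5 times of it. It was 9582 with the 99th percentile of receptor genes, 12716 with the median of all probe sets (5.03), 8789 with the 95th percentile of genes of unrelated tissues (6.39), and between 12801 and 12964 with either array left out. The number of lists with a larger share above the bound than all genes was 37 and ranged from 33 to 37. The count of members above the bound moved by more than 1.5 times for 16 lists with the 99th percentile and for 19 with the unrelated tissues, and for at most 1 list under each other alternative. The count of 25 genes that differed by 1 or more between the arrays became 7 with genes of a mean below the bound left out, 632 over all 41345 probe sets and 422 with a threshold of 1.5-fold. It was 24 when probe sets of 1 gene were averaged and 25 with equal medians. No paired analysis was possible because the vehicle arrays alone were analysed, and they form 1 group. Limits are the 2 arrays, the missing detection calls and the unequal brightness of probe sets.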

Other observations

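Genes of osteoclasts, the bone-resorbing relatives of macrophages, were looked up after Ctsk and Atp6v0d2 had been seen among the brightest genes, so the list was chosen after values were seen and was not tested. Of its 20 genes, 9 were already in the lists above. All 20 were measured, 16 were clear and 2 at or below the bound, with a median of 8.16. Over all genes, 42.2% were clear. Larger shares were clear among pan-macrophage genes (23 of 26), lysosome genes (24 of 27) and adaptors and kinases of immune receptors (19 of 21). The share was thus not particular to osteoclast genes. Ctsk and Atp6v0d2, which prompted the list, are included in its count and median, and with Gpnmb they are its brightest members. Nfatc1, the master factor of osteoclast differentiation, read 9.29 and 9.37, the proton pump subunit Tcirg1 read 9.96 and 10.12, and the phosphatase gene Acp5 (TRAP) read 7.96 and 8.41. The fusion genes Ocstamp and Dcstamp were clear at 6.55 and 6.85, and 6.04 and 6.34. The 6.04 of Dcstamp lies above 6.02 by less than the pooled SD of 0.128 for clear genes, so its zone is not settled. Calcr, the calcitonin receptor, read 4.30 and 4.38 and carbonic anhydrase gene Car2 read 4.45 and 4.17, and both are defining genes of mature osteoclasts. Mmp9 (5.02 and 4.73) and Oscar (4.67 and 5.21) lay on either side of the bound.

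By type of gene, 61.9% of 18964 protein-coding genes had both arrays above 4.93, against 28.8% of 1926 long noncoding RNA genes and 25.9% of 478 microRNA genes. Of 80 small nucleolar RNA genes it was 86.3%, with a median of 9.62. Among protein-coding genes outside the olfactory and vomeronasal families, the median level was 6.21 for 16851 autosomal genes and 4.68 for 718 genes of the X chromosome, with 67.2% and 45.4% above the bound on both arrays.

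Among genes with a mean above 4.93, the largest differences between the arrays were those of Trim43c (6.72 and 5.17), a gene of the preimplantation embryo, Ftl1-ps2 (5.48 and 4.40), Trp53rka (6.64 and 5.63), Pdxk-ps (5.67 and 4.67), Lmod1 (6.22 and 5.28) and the splicing factor gene U2af2 (8.45 and 7.52) on array 1. On array 2 they were Gal3st2c (4.47 and 5.48), the centromere gene Cenpq (6.70 and 7.70), the fatty acid carrier gene Fabp4 (6.30 and 7.24), Nlrp10 (5.55 and 6.47), Mrpl54 (7.30 and 8.21) and Rps20 (5.51 and 6.41). Small RNAs, receptor families and clone names were passed over here. Vmn1r233, a vomeronasal receptor gene and thus part of the reference, read at a mean of 12.70 with a second probe set at 3.38.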
